A study of Mus musculus with 2 samples.

Results

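Chitinases and chitinase-like proteins were examined in mouse nasal mucosa 3 days after papain and 3 days after phosphate-buffered saline (PBS). The 5 genes were Chil4, Chil3, Chil1, Chia1 and Chit1, taken by gene symbol in the platform annotation from 22180 named genes, with the brightest probe set kept where a gene had several. Each of the 5 had 1 probe set, and the gene IDs of all 5 matched the same symbol in RefSeq. The genes were selected on their papain and PBS signals, which were known when the set was drawn up, so every difference below is a description.

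In the papain group, C57BL/6 mice aged 4 to 6 weeks received papain, a plant cysteine protease, in the nose, and in the PBS group mice of the same strain and age received the vehicle. No genetic change is named for either group. By its title, the study asks how a cysteine protease acts on the upper airway through IL-33. Total RNA was measured with the Affymetrix Mouse Gene 2.0 ST array, 1 array per group, and 4 samples had been pooled into a specimen according to the series' design text, which does not say whether that holds for each array. No spread between animals can be had from such a design and no test was run. Precision is limited by the number of arrays. In bulk mucosa, fewer cells of a type and less RNA per cell cannot be told apart.

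Chitinases are secreted or lysosomal enzymes that cut chitin, the polymer of fungal walls, mite bodies and insect cuticle. Chia1 (acidic mammalian chitinase) and Chit1 (chitotriosidase) are active enzymes. Chil1 (BRP-39, the mouse counterpart of human YKL-40), Chil3 (Ym1) and Chil4 (Ym2) have the same fold but have lost the catalytic activity, and are called chitinase-like proteins or chi-lectins. In mouse airways Chil3 and Chil4 are known as products of macrophages and epithelium under type 2 cytokines, and Ym proteins are known to form crystals in inflamed airways.

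Chil3 and Chil4 are close copies that lie next to each other on chromosome 3. Their upstream regions are shown because these genes were the 2 of the 5 past a 2-fold difference in array signal, with that of Chia1, the enzyme gene next to Chil3. Each is the 250 bases before the RefSeq transcription start in build GRCm38.p6, 5′ to 3′ on the gene's own strand, at chr3:106219480-106219729 (minus strand) for Chil4, chr3:106167565-106167814 (minus strand) for Chil3 and chr3:106113132-106113381 (plus strand) for Chia1. Capitals mark matches to TATAAA or TTCNNNGAA on either strand.
Chil4: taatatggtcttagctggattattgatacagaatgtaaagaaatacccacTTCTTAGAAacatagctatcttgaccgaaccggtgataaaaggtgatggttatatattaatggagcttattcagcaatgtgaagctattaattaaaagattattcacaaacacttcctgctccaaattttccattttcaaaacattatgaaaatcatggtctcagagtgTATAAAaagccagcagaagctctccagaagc
Chil3: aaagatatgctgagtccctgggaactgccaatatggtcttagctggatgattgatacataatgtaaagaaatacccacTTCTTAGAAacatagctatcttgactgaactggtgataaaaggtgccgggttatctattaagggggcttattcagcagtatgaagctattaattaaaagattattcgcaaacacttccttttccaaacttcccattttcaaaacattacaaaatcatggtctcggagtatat
Chia1: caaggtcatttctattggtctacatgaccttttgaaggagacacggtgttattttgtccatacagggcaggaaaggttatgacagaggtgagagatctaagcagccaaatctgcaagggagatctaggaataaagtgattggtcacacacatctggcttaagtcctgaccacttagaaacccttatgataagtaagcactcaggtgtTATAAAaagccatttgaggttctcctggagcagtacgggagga

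Aligned with free ends, the Chil4 and Chil3 regions shared 201 of 221 aligned bases, or 91.0% identity, with 20 mismatches and 2 gap bases. The corresponding identity was 64.3% for Chil4 with Chia1, 62.8% for Chil3 with Chia1 and 56.9% for Chil4 with Chil1, with 20, 37 and 38 gap bases. With the regions of Chil5 and Chil6 included, every pair other than Chil4 with Chil3 lay between 53.5% and 66.3%. Chil3 with Chit1, which lies on chromosome 1, had 63.9%, so these values do not set the neighbour Chia1 apart. The motif TTCNNNGAA, the half-site pair that STAT factors read, began 200 bases before the start in Chil4 and 172 bases before it in Chil3, in the same aligned place. Among upstream windows of this length in RefSeq, 7.02% of 32851 held it. It was in none of the windows of Chia1, Chil1 and Chit1. The related gene Chil6, which did not differ between the arrays by 2-fold, held it as well. The same half-sites TTC and GAA with 4 bases between them, the spacing that STAT6 is known to prefer, were in 0 of the 5 windows and in 5.85% of all windows, on either strand. TATAAA, the core promoter box, began 31 bases before the start in Chil4 and 43 bases before it in Chia1. At any place in the window and on either strand, 12.4% of all windows held it, a share that takes no account of position. Chil6 held it 204 bases before the start. In Chil3 the same box ran across the annotated start, and it was found when the 50 bases after the start were added. With those bases, 13.6% of all windows held it. The motifs were picked with the sequences in view, and a match is a description of letters.

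The gene for Ym2, Chil4, was much brighter after papain, and Chil3 was brighter from a dim signal, while Chil1, Chia1 and Chit1 differed little. Chil4 read a log2 signal of 12.74 in the papain array, against 8.63 in the PBS array. That is a log2 ratio (papain minus PBS) of 4.11, or 17.3-fold higher. Both signals were far above background level, defined as the median of 32 genes of other tissues, which was 5.10 for papain and 5.02 for PBS. Chil4 ranked 44 from the top among the ratios of 22180 named genes, and also 44 among genes above the floor. Most of the genes ahead of it were vomeronasal or olfactory receptors, and with these set aside it ranked 3 among genes above the floor. The floor was a log2 signal of 6.29, the median of named genes, and a gene counted as above it when the higher of its signals reached it, which 11691 genes did.

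Chil3, which encodes Ym1, read 6.68 in the papain array, against 4.65 in the PBS array, a log2 ratio of 2.03. The PBS signal minus background level was -0.37, so this is a ratio of array signals and no fold in transcript is given. Set against background level in the PBS array, the papain signal was 1.66 higher on the log2 scale. The papain signal was also just over 6.66, the 95th percentile of the genes of other tissues over both arrays. Because the transcripts of these copies are known to be alike and the probe sequences were not used here, how much Chil4 transcript bound to Chil3 probes, or the reverse, was not tested.

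**Figure D1:**
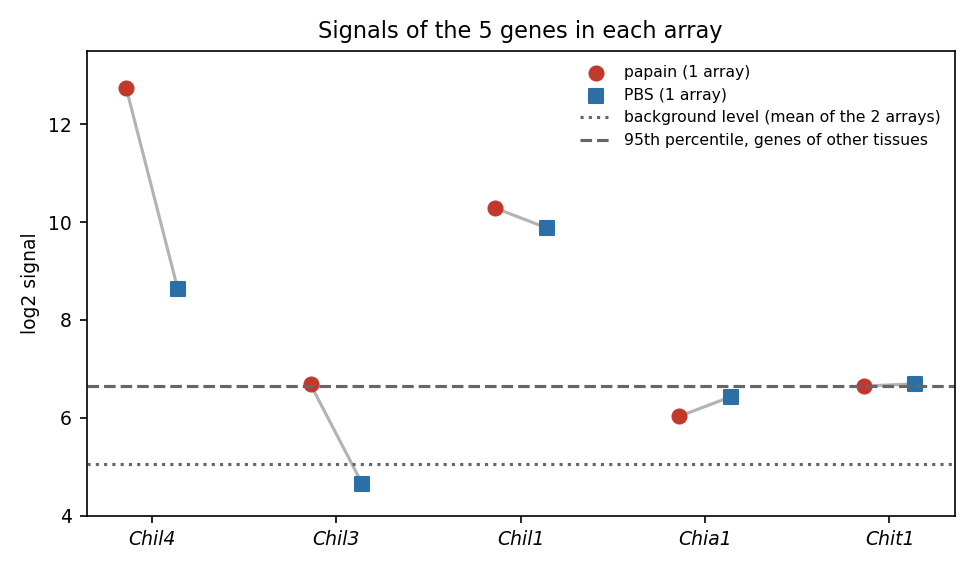
Log2 signal (y axis) of the 5 genes in the papain array (red circles) and the PBS array (blue squares), 1 array each, with a grey line joining the values of a gene. The dotted line is background level, averaged over the arrays, and the dashed line is the 95th percentile of genes of other tissues, 6.66. The gap between papain and PBS is widest for Chil4, Chil3 has its PBS point under background level, and the points of Chil1, Chia1 and Chit1 lie close together.

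Chil1, whose secreted product is a marker of tissue inflammation and remodelling, was bright in both arrays, at 10.29 after papain and 9.88 after PBS. Its log2 ratio was 0.41, or 1.33-fold higher, which is 1.25 times the SD of a single probe set's ratio. That SD, 0.32, came from 1082 genes with repeated probe sets and measures probe set error, not animals. Chil1 therefore lay within 2-fold, and its difference was near the size of the probe set error.

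The genes of the active enzymes were dim. Chia1 read 6.03 after papain and 6.43 after PBS, a log2 ratio of -0.40 and 1.32-fold lower. Both of its signals were under the 6.66 reached by genes of other tissues, so the size of this fold is uncertain. Chit1 read 6.65 after papain and 6.69 after PBS, a log2 ratio of -0.04, which became 0.05 after loess correction for signal. Its PBS signal lay just over 6.66 and its papain signal just under it, so neither enzyme gene stood clear of the signal that genes of other tissues can reach.

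All 5 genes passed the floor, Chil3 through its papain signal alone and Chia1 through its PBS signal alone. Of the 5, 2 (Chil4 and Chil3) had array signals at least 2-fold higher after papain, against 1.59% of the genes that passed the floor. The PBS signal of Chil3 was under background level, so it is counted on array signals alone, with no fold in transcript. None (0 of 5) was lower by that much, against 0.385% of those genes, and 3 differed by less than 2-fold. The 5 were chosen with this contrast in view, so the shares are given for scale only. With no floor, 1.83% of all named genes were higher and 0.73% lower by 2-fold or more. The median log2 ratio of the 5 was 0.41, and that of genes above the floor was -0.10. These counts stayed at 2 and 0 at thresholds of 1.5-fold and 3-fold.

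**Figure D2:**
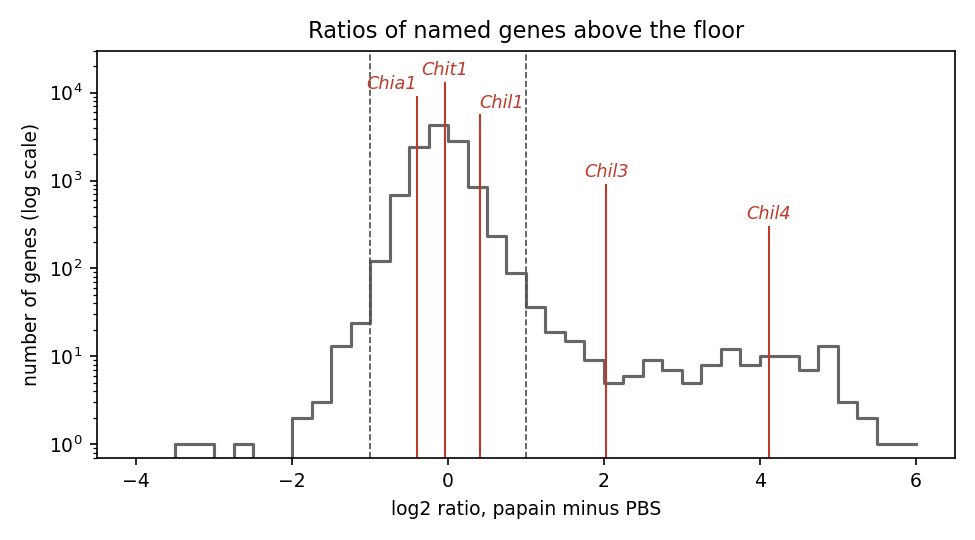
Number of named genes (y axis, log scale) by log2 ratio of papain minus PBS (x axis, bins of 0.25) among the 11691 genes above the floor, as a grey outline. Red lines mark the 5 genes and dashed lines mark 2-fold. Chil4 at 4.11 and Chil3 at 2.03 lie in the right tail, and Chia1, Chit1 and Chil1 lie in the main body between the dashed lines.

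Chia1, Chil3 and Chil4 sit side by side on chromosome 3, in that order, between the chitinase-like genes Chil5 and Chil6, and Chit1 and Chil1 are neighbours on chromosome 1. The rule did not use this position. Around the chromosome 3 group, 6 other measured protein-coding genes had log2 ratios between -0.17 and 0.26, and 0 of them reached 2-fold. Of all named genes with no floor, 1.83% were at least 2-fold higher and 0.73% lower. Chil6, the next gene after Chil4 and bright in both arrays, read 11.19 after papain and 11.29 after PBS, a log2 ratio of -0.10. Chil5, on the other side of Chia1, read 5.24 after papain and 4.98 after PBS, the PBS signal under background level, with a log2 ratio of 0.26. Among the 9 measured genes of this stretch, array signals thus differed by 2-fold or more at Chil3 and Chil4 only. The PBS signal of Chil3 was under background level. Around Chit1 and Chil1, 4 other measured genes ran from -0.89 for Fmod, a matrix proteoglycan gene, to -0.13 for Ppfia4.

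**Figure D3:**
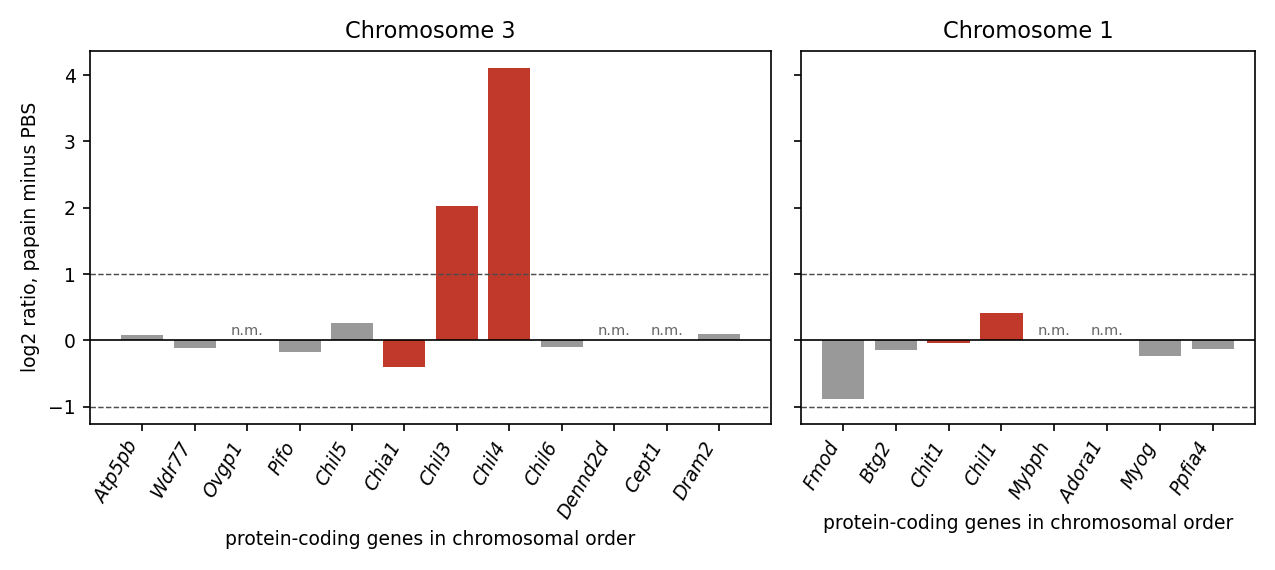
Log2 ratio of papain minus PBS (y axis) for protein-coding genes in chromosomal order (x axis) around the chitinase genes of chromosome 3 (left) and chromosome 1 (right). Red bars are the 5 genes, grey bars their neighbours, n.m. marks a gene with no probe set of its own name used here, and dashed lines mark 2-fold. Only the bars of Chil3 and Chil4 pass the dashed lines among the genes drawn.

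Other relatives of the same hydrolase family lay within 2-fold. Of 6 listed, 4 were measured and 0 were past 2-fold, against 1.83% of all named genes upward and 0.73% downward with no floor. With shares so small, 0 of 4 is near that of all genes. Of the 4, 1 had a ratio above 0 and 3 below, and the median was -0.26, or -0.42 among members above the floor. This list and those below were drawn up with earlier results of these data known, so shares are given for scale only. Ctbs, a lysosomal chitobiase, read 6.63 after papain and 7.12 after PBS, a log2 ratio of -0.48. Chid1, a secreted chitinase-domain protein, read 6.32 after papain and 6.74 after PBS, a log2 ratio of -0.42. The papain signals of Ctbs and Chid1 were under the 6.66 reached by genes of other tissues, so these sizes are uncertain. Chil6 and Chil5, given above, completed this set.

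Genes for proteins that bind chitin or chitinase-like proteins had ratios above 0 for 6 of 8 measured members, against 45.6% of all named genes. Those 6 include Il13ra2, under background level in both arrays, and Clec4e, whose PBS signal was under it. None of the 8 genes reached 2-fold, against 1.83% of all named genes upward and 0.73% downward with no floor. Their median was 0.17, or 0.11 among members above the floor. Among pattern receptors, Tlr2 had a log2 ratio of 0.78, at 5.94 after papain and 5.16 after PBS, Clec7a (dectin-1) had 0.36 and Clec4e (Mincle) had 0.23 from a PBS signal under background level. Fibcd1, a membrane receptor for acetylated sugars such as chitin, had 0.55, at 6.59 after papain and 6.04 after PBS. The signals of Tlr2 and Fibcd1 in both arrays were under the 6.66 reached by genes of other tissues, so these sizes are uncertain. Il13ra2, the decoy receptor for IL-13 that is known to bind the Chil1 product, was under background level in both arrays. Tmem219, the partner of that receptor, had 0.11, while Lgals3 (galectin-3) had -0.23 and Cd44, the hyaluronan receptor, had -0.27.

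Chil3 and Chil4 are known targets of IL-4 and IL-13, which signal through Stat6. Genes of that upstream pathway are given here for comparison, in a list that also holds Il33 and Il5, which are not part of it. Of the 9 measured genes of this list, 0 were past 2-fold, against 1.83% of all named genes upward and 0.73% downward with no floor. The median log2 ratio of the 9 was 0.01 and ranged from -0.22 to 0.14 over the alternatives tried. Il13 itself had a log2 ratio of 0.29, at 5.81 after papain and 5.52 after PBS. Both of its signals were under the 6.66 reached by genes of other tissues, so the size is uncertain. Il4 was under background level in both arrays, so its ratio is not given. Jak1, a kinase of the receptors for these cytokines, had 0.75, and Tyk2 had -0.29. The receptor genes Il4ra and Il13ra1 had 0.01 and -0.15, Stat6 had -0.29 and Il33 had -0.54. Il5 had 0.55 from a PBS signal under background level. Of 17 other genes known to respond to IL-4 or IL-13, 4 were past 2-fold upward and 0 downward, against 1.83% and 0.73% of all named genes with no floor, and their median was 0.47. Clca1, a goblet cell secreted protein, was 3.58-fold higher, with a PBS signal of 6.03 that makes the size uncertain. Itln1 (intelectin) was 2.26-fold and Fcgbp, a mucus protein, 2.09-fold higher. Retnla, a macrophage product, had its PBS signal under background level, as Chil3 did, and no fold is given.

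**Figure D4:**
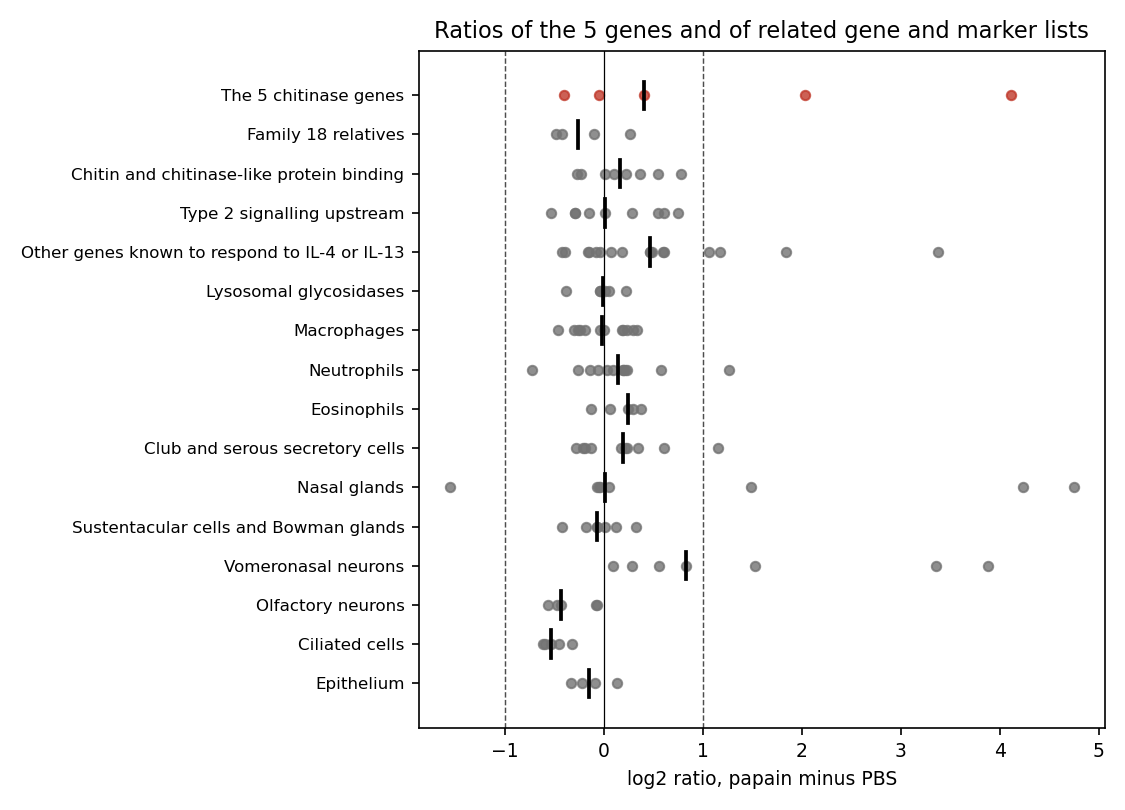
Log2 ratio of papain minus PBS (x axis) of each measured gene (points) in the 5 chitinase genes (red) and in related gene and marker lists (grey), with the median of each as a black bar and dashed lines at 2-fold. The 5 genes spread from -0.40 to 4.11, and ratios over 3 also appear among nasal gland, vomeronasal neuron and IL-4 or IL-13 response genes.

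Macrophages and neutrophils are known sources of Chil3 in mice, and markers of these and other cells of the mucosa are given here for comparison. Macrophage markers, 12 of 12 above background level in both arrays, had a mean log2 signal of 7.34 after papain and 7.35 after PBS, a median ratio of -0.02 and 0 members past 2-fold. That median turned positive under 3 of 5 alternatives, up to 0.18 among members above the floor. Adgre1 (F4/80) had 0.33, Lyz2 had 0.29, Siglec1 had -0.30 and Cd68 had -0.46. Neutrophil markers had a mean log2 signal of 6.17 after papain and 6.04 after PBS and a median ratio of 0.14. On this list 1 of 12, the chemokine receptor Cxcr2, was at least 2-fold higher, and its PBS signal of 5.59 makes the size uncertain. Of all named genes with no floor, 1.83% were higher and 0.73% lower by that much. The granule gene Ltf of the neutrophil list is also on the list of secretory cells, and the macrophage marker Mrc1 is also on the list of IL-4 and IL-13 response genes. Eosinophil markers, 0 of 5 above the floor, had a mean of 4.81 after papain and 4.64 after PBS and a median ratio of 0.25.

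Club and serous secretory cell markers had a mean log2 signal of 9.49 after papain and 9.29 after PBS, with a median ratio of 0.19. The markers Scgb1a1 and Scgb3a2 of this list were under background level in both arrays. Of the 10, 1 (Lyz1) was at least 2-fold higher, against 1.83% of all named genes with no floor. Its PBS signal of 6.31 makes the size uncertain. The nasal gland list had a mean of 10.67 after papain and 9.57 after PBS and a median ratio of 0.01. It held 3 of 8 genes past 2-fold upward and 1, Bpifb3, past it downward, against 1.83% and 0.73% of all named genes. Of the upward genes, Odam had a PBS signal under background level, so its ratio is no measure of transcript. Its members Bpifb9b and Bpifb9a were 26.8-fold and 18.8-fold higher. Vomeronasal neuron markers had ratios above 0 for 7 of 7, against 45.6% of all named genes, and a median of 0.83. Their mean log2 signal was 8.23 after papain and 6.72 after PBS. Of the 7, 3 (Calr4, H2-M1 and H2-M10.3) were past 2-fold upward, against 1.83% of all named genes. All 3 had PBS signals under background level. The marker lists were drawn up with earlier results of these data known, so the shares beside them are given for scale only. The part of nasal gland or vomeronasal tissue in the Chil4 and Chil3 differences was not tested. Defining markers of the labelled tissue were present. Those of sustentacular cells and Bowman glands were above background level for 7 of 7 in both arrays, as were olfactory neuron markers for 5 of 5 and epithelial markers for 4 of 4.

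The genes with the nearest array values were found by the distance between pairs of log2 signals over the 2 arrays. Vomeronasal and olfactory receptors (Vmn and Olfr symbols), predicted genes (Gm and Rik) and small RNA genes (Mir and Snor) were left out of this search beforehand. The genes named here are therefore the nearest among the remaining named genes. Signals of different probe sets depend on the probes, so nearness describes array values and not transcript levels, and the pair of Chil3 includes a PBS signal under background level. The genes nearest to Chil4 were Bpifb9b at a distance of 1.39, Bpifb9a at 1.46 and S100z at 1.73. Nearest to Chil3 were Lsmem1 at 0.34, H2-M10.4, a vomeronasal class I gene, at 0.38 and Cacng2 at 0.38. Chil1 had Bpifb4 at 0.038, Eif4a2 at 0.050 and Rps3a1 at 0.071. The nearest gene was Fam20a for Chia1, at 0.013, and Txnrd2 for Chit1, at 0.0032. Other genes of the 3 nearest were Mamld1 and Gnpda1 for Chia1, and Vsig10l and Sla for Chit1.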

How the data were processed

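Values were read for 1 papain and 1 PBS array of total RNA. The authors deposited log2 signals for each transcript cluster; that scale was inferred from the numbers (medians 5.70 for papain and 5.64 for PBS over 41345 clusters). Transcriptome Analysis Console 4.0 is named per the submitters' processing notes, and the background correction and normalization were not given in the sources used here. If the arrays were equalised, ratios are relative to the bulk of genes. The arrays correlated with r = 0.967 across clusters, which are not replicates. Clusters with 1 symbol (23521) were named from the platform annotation, 1814 carried several and 16010 none. The brightest cluster per gene was kept. Members and lists were chosen with earlier results of these data known. Named genes were the 5 members and all measured members of the first 2 lists (family relatives, chitin binding). From each other list up to 4 were named by size of ratio among genes above background level in at least 1 array. Il4, Il13, Il4ra, Il13ra1 and Stat6 were added after their values were seen. Alternatives were quantile normalization, median centring, loess (span 0.3), mean over probe sets, other floors and other thresholds. The counting and normalization steps were tested on simulated data. Promoters came from RefSeq, GRCm38.p6, and were aligned with Biopython 1.88. Python 3.11.15, numpy 2.4.6, pandas 2.3.3, statsmodels 0.14.6 and matplotlib 3.10.9 were used.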

Additional observations from a re-analysis of the deposited data

How the results depend on the processing

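Under quantile normalization, median centring, loess and averaged probe sets, the log2 ratio stayed between 4.11 and 4.16 for Chil4, 1.99 and 2.06 for Chil3, 0.41 and 0.46 for Chil1, and -0.42 and -0.36 for Chia1. Chit1 ran from -0.04 to 0.05. The counts of 2 higher and 0 lower members held under all 6 alternatives tried for them. Over all genes, 186 were at least 2-fold higher and 45 lower. These became 397 and 507 at 1.5-fold, 405 and 162 with no floor, and 93 and 18 with a floor at the 75 percentile. At 3-fold 126 were higher and 6 lower. The median of 0.01 for the upstream list, which includes Il33 and Il5, was 0.14 after loess and -0.22 among members above the floor. Among members above the floor, the macrophage median was 0.18 and the vomeronasal neuron median 0.70. The causes were not tested. No paired analysis was possible because each group was 1 array. Chia1, Chit1 and the PBS signal of Chil3 are limited by signals near background.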

Other observations

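Lysosomal glycosidases, enzymes that trim sugars from glycoproteins and glycolipids, differed little, with 0 of 6 measured past 2-fold and a median log2 ratio of -0.01 that turned positive under 3 of 5 alternatives. Man2b1 had -0.38, Manba 0.23, Gla 0.05 and Hexa -0.04. Of all named genes with no floor, 1.83% were at least 2-fold higher and 0.73% lower. Ciliated cell markers were below 0 for 5 of 5, as were 64.1% of all genes above the floor, with a median of -0.54, and Rsph1 had -0.61, Tppp3 -0.59, Foxj1 -0.54 and Ccdc40 -0.45. Olfactory neuron markers were also below 0 for 5 of 5, against the same share of all genes, with a median of -0.44. Epithelial markers had a median of -0.15 and those of sustentacular cells and Bowman glands -0.07, with 0 members past 2-fold in either.

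The probe set that the annotation gives to both Ovgp1, an oviduct glycoprotein gene of the same hydrolase family, and Wdr77 read 5.25 after papain and 4.39 after PBS, the PBS signal under background level. It was left out of every count because it names more than 1 gene.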
